A study of Mus musculus with 9 samples.

Results

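The comparison is of S1S2 mouse embryonic fibroblasts (MEFs), which lack the histone H3 lysine 9 (H3K9) methyltransferases Suv39h1 and Suv39h2, with WT MEFs, and it takes in the 6 libraries labelled S1S2-1 to S1S2-3 and WT-1 to WT-3 out of 9 in the series. The other 3 libraries, from G9Gl MEFs that lack G9a and Glp, entered the model fit and are used below only where a gene's level in them is stated. The methods of the study that the labels point to are taken to describe these lines. By them, the WT cells are a clone of MEFs with a conditional Eset1 allele and tamoxifen-inducible Cre, kept here with Eset1 intact. S1S2 is 1 clone made from these cells with CRISPR/Cas9 and picked for the absence of both proteins on western blots. After gene disruption, the study put an inducible Cre construct with puromycin resistance back into the cells and kept the lines under puromycin. Whether the WT cells were treated likewise is not stated. Loss of the enzymes, this step and the history of this clone cannot be told apart in any value below. Total RNA of 3 biological replicates per line was sequenced, and p-values measure the spread between such cultures of a line, not between independently made clones.

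Suv39h1 and Suv39h2 place the trimethyl mark on lysine 9 of histone H3, mainly at the satellite repeats beside centromeres and at dispersed repeats. The mark is bound by HP1 proteins, and the resulting compact chromatin, called heterochromatin, is known for keeping repeats and some genes silent. Fibroblasts are the cells of connective tissue that secrete collagen and other extracellular matrix.

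Expression is given in CPM, the count of a gene relative to its library total after scaling for library composition. CPM is not divided by transcript length, so levels are compared between libraries and not between genes. A gene is called higher or lower where edgeR's quasi-likelihood F test gave an adjusted p (Benjamini-Hochberg) no larger than 0.01 and the fitted levels differed 2-fold or more. Of 15540 genes tested, 9.0% were called, 4.66% higher in S1S2 and 4.34% lower. When the fold limit was dropped and only the adjusted p kept, 37.9% passed, 20.3% higher and 17.6% lower. For 56.0% of genes tested the 3 S1S2 libraries did not overlap the 3 WT libraries. Of the 1398 called genes 1395 had no such overlap, so a lack of overlap stated below for called genes adds little to the call. At an unadjusted p under 0.05, 54.6% passed, 27.8% higher and 26.8% lower. Shares of any gene group below are read against these values. The WT libraries held 30177597 to 32157623 counts and the S1S2 libraries 21319778 to 27588548, so a floor of 3 counts per library, at or under which a gene is treated as not detected, lay between 0.0923 and 0.141 CPM. The reads carry no molecular identifiers, so floors and counting intervals cover counting error only.

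The cells were checked against markers of their type and of others. The fibroblast markers Col1a1, Col1a2, Col3a1, Vim and Fn1 were abundant in every library, but 6 of the 10 fibroblast markers were called lower in S1S2, and their summed level was 9917 to 11410 CPM in WT and 7411 to 7478 CPM in S1S2. Vim, an intermediate filament of mesenchymal cells, was at 1489, 1536 and 1349 CPM in WT and 2439, 2473 and 2285 CPM in S1S2 (log2 fold change 0.72), below the fold limit, and Fn1 differed by 0.09. The 8 epithelial markers summed to 0.298 to 0.580 CPM in WT and 5.10 to 5.75 CPM in S1S2. Krt8 held 104, 113 and 109 of these counts in the S1S2 libraries, Cldn4 held 17, 11 and 1, against 1, 0 and 1 in WT, and Krt18 held 0, 8 and 3, against 0 in each WT library. Epcam went from 9, 6 and 10 counts in WT to 2, 6 and 6 in S1S2, and Cdh1 from 3, 0 and 1 to 0, 1 and 0. The 6 endothelial markers summed to 0.165 to 0.226 CPM in WT and 1.60 to 1.93 CPM in S1S2, most of it Kdr, a receptor of vascular growth factor. Of 8 blood markers 6, Ptprc among them, and of 7 markers of pluripotent and germ cells 4, Pou5f1 among them, had no count in any of the 6 libraries. The part of other cell types in the results was not tested. In bulk RNA, fewer cells of a type and less RNA per cell cannot be told apart.

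RNA of the targeted genes was measured first. Suv39h1 was at 112, 108 and 103 CPM in WT and at 43.1, 44.2 and 38.3 CPM in S1S2 (-1.36 on the log2 scale, SE 0.073, adjusted p = 2.62e-12). Suv39h2 was at 33.2, 34.2 and 34.4 CPM in WT and higher in S1S2, at 57.4, 55.5 and 52.7 CPM, a difference of 0.70 (adjusted p = 3.01e-08) that did not reach the fold limit. Both genes were transcribed in S1S2, which does not check the loss of protein, since a frameshift need not lower RNA. The transcripts of the other 4 H3K9 methyltransferases, Setdb1, Setdb2, Ehmt1 and Ehmt2, differed by -0.37 to 0.40 and none was called.

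Changes were about as often up as down, and most called genes were low. The median log2 fold change over all tested genes was -0.00317, the 5th and 95th percentiles were -1.09 and 1.14, and the quartiles -0.244 and 0.251. Among called genes, 390 rose and 354 fell by 1 to 2 on the log2 scale, 139 rose and 168 fell by 2 to 3, 134 rose and 103 fell by 3 to 5, and 61 rose and 49 fell by 5 or more. Genes called higher had a median level of 0.679 CPM in WT and 2.71 CPM in S1S2, and genes called lower 3.07 CPM in WT and 0.747 CPM in S1S2, against a median of 18.5 CPM in WT over all tested genes. Of genes with a mean level over both genotypes under 1 CPM 17.6% were called, of those at 1 to 10 CPM 16.6%, at 10 to 100 CPM 3.78% and over 100 CPM 2.09%. Genes called lower held 1.83% of all counts in WT and 0.514% in S1S2, and genes called higher 0.491% in WT and 1.5% in S1S2, so the called genes were a small part of the RNA in either genotype.

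**Figure D1:**
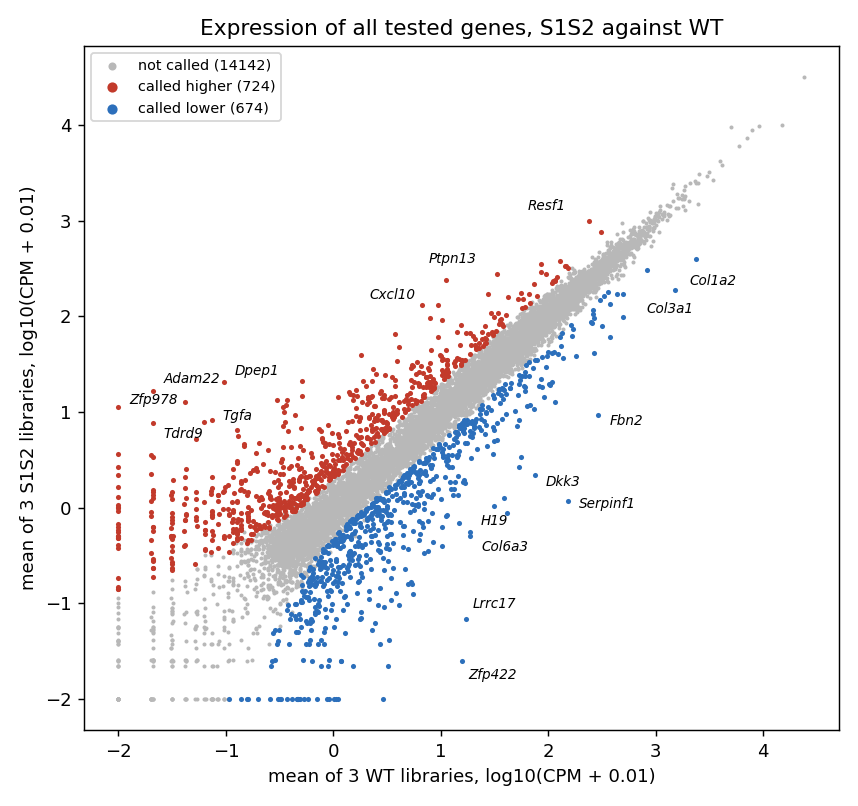
Mean expression of every tested gene in S1S2 (vertical axis) against WT (horizontal axis), each the mean of 3 libraries as log10(CPM + 0.01). Red points are the 724 genes called higher, blue points the 674 called lower, and grey points were not called; called genes lie mostly below 10 CPM, and several lie on the left or bottom edge, where a genotype has almost no counts.

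The largest rises started from almost no RNA in WT. Adam22, encoding a cell-surface protein of the ADAM family, was at 0, 0.0331 and 0 CPM in WT and at 18.1, 16.8 and 15.3 CPM in S1S2. Tdrd9, a helicase of the germline pathway against transposons, was at 0, 0 and 0.0322 CPM in WT and at 8.14, 8.02 and 6.63 CPM in S1S2. Dpep1, a membrane dipeptidase, was at 0.0308, 0.132 and 0.0967 CPM in WT and 19.3, 20.2 and 22.4 CPM in S1S2 (7.84 on the log2 scale, SE 0.34, adjusted p = 2.46e-13). In all 3 genes every S1S2 library was above every WT library, which the rule for naming the largest rises required. Tgfa, an epidermal growth factor receptor ligand, was at 0.0615, 0.0992 and 0.0322 CPM in WT and 9.38, 7.76 and 7.81 CPM in S1S2. Coro2a, an actin-binding coronin, went from 0.554, 0.397 and 0.548 to 22.7, 20.7 and 20.1 CPM (5.39, SE 0.15, adjusted p = 8.94e-15). The synaptotagmin Syt13 rose by 5.20, and the remaining 4 of the 10 largest rises, Zfp978, Zfp981, Gm21887 and Gm10582, have close copies in the genome. The first 2 are described with the gene clusters. Of the 75-base words of Gm21887 57.1% occur in other genes, and of those of Gm10582 67.7%.

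Genes already abundant in WT rose by less on the log2 scale. Resf1, known as a partner of SETDB1 in silencing retroviral elements, was at 239, 224 and 261 CPM in WT and at 972, 990 and 1003 CPM in S1S2 (2.03, SE 0.065, adjusted p = 2.72e-15). Trim24, a chromatin reader, was at 86.2, 86.1 and 87.7 CPM in WT and 360, 359 and 350 CPM in S1S2 (2.04, SE 0.016). The phosphatase gene Ptpn13 rose from 32.4, 33.2 and 35.6 to 283, 284 and 262 CPM. Ccnd1, encoding cyclin D1, was at 136, 145 and 107 CPM in WT and 390, 385 and 375 CPM in S1S2, and Nes, the intermediate filament nestin, rose by 1.29. The S1S2 libraries lay above all WT libraries in each of these 5 genes.

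The largest falls included genes of secreted and membrane proteins. Serpinf1, encoding the secreted factor PEDF, was at 149, 141 and 170 CPM in WT and at 1.33, 0.838 and 1.32 CPM in S1S2 (-7.07, SE 0.23, adjusted p = 1.04e-16). Dkk3, a secreted protein of the Dickkopf family, fell from 72.5, 78.1 and 73.8 to 2.07, 2.22 and 2.26 CPM (-5.09, SE 0.049, adjusted p = 2.59e-18). Fbn2, a microfibril protein, was at 283, 291 and 306 CPM in WT and 9.19, 9.55 and 9.5 CPM in S1S2 (-4.96, SE 0.036, adjusted p = 3.35e-19). Flrt3, a membrane protein with leucine-rich repeats, fell by 5.53 on the log2 scale. In each case replicates of a genotype differed by much less than the genotypes did. The cystine transporter Slc7a11 fell from 30.1, 22.8 and 41.7 to 1.06, 0.62 and 1.41 CPM, with a wider spread between cultures of both genotypes. Gm13230, whose locus overlaps Platr16, fell by 4.97. Col6a3, Lrrc17, Zfp422 and H19 complete the 10 largest falls and are described below.

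A strict class of genes was on in 1 genotype and not detected in the other. 31 genes were switched on, at or under 3 counts in each WT library and at 1 CPM or more in each S1S2 library, and 18 were switched off by the reverse rule. The switched-on genes reached 1.15 to 16.7 CPM in S1S2 with a median of 1.95 CPM, and 24 were protein coding. All 18 switched-off genes were protein coding, at 1.34 to 17.0 CPM in WT with a median of 2.80 CPM. Only 7 switched-on and 2 switched-off genes exceeded 5 CPM, so these genes were expressed at low levels where they were on. A fold change against a genotype with no count in any library is a lower bound computed against 3 counts per library, and with a few counts it is a ratio with its exact 95% counting interval.

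Zfp978 and Hspb8 had no count in any WT library. Zfp978, a zinc finger gene, was at 11.8, 11.5 and 10.4 CPM in the S1S2 libraries, a rise of at least 113-fold. Hspb8, a small heat shock protein, was at 3.45, 3.68 and 3.67 CPM, a rise of at least 36.3-fold. For Adam22 the 3 WT libraries together held 1 count against 1179 in S1S2, a ratio of 1570 (281 to 62000), and for Tdrd9 1 against 538, a ratio of 716 (128 to 28300). Gm21887 was higher by 394 times (134 to 1910), Gm10582 by 145 (61.7 to 448), Tgfa by 129 (59.1 to 354) and Oas3, an interferon-induced sensor of foreign RNA, by 122 (47.4 to 452). The wide intervals come from the few WT counts. The switched-on genes also included the neural adhesion molecule Nrcam, the ligand Wnt7a at 0 in WT (at least 16.6-fold higher), the protocadherins Pcdh10 and Pcdh17, the desmosome protein Dsp and, outside the naming rule, the nuclear body genes Sp100 and Sp140. In the G9Gl libraries 23 of the 31 were also at or under the floor and 4 were at 1 CPM or more.

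Among switched-off genes, Zfp422, a zinc finger gene, was at 15.7, 14.4 and 16.7 CPM in WT and held 1 count in the 3 S1S2 libraries together, a ratio of 1100 (197 to 43500). Lrrc17, a secreted leucine-rich repeat protein, was at 16.4, 14.2 and 20.3 CPM in WT and 0.0919, 0.0365 and 0.047 CPM in S1S2, a ratio of 300 (117 to 1100). Mmp16, a membrane-anchored metalloproteinase, fell from 3.02, 3.27 and 3.35 CPM to a single count in S1S2, a ratio of 226 (40.3 to 8960). The kinase gene Rps6ka6 was lower by 115 times (31.5 to 953), the matrix proteoglycan gene Fmod by 34.3 (16.5 to 86.1), and 3 further genes of the highest 8, Pcdhb16, Pcdhb18 and Pcdhb19, belong to a protocadherin cluster. Of the 18 genes 12 were at 1 CPM or more in every G9Gl library and 1, Fmod, was at or under the floor there.

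**Figure D2:**
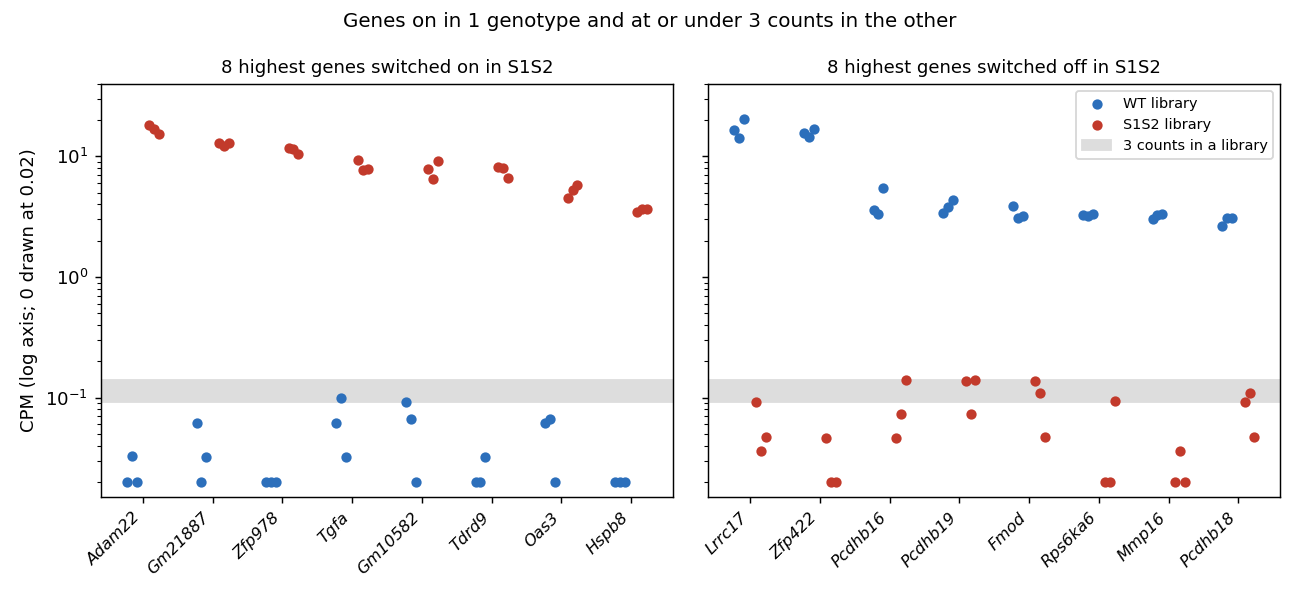
CPM of the 8 highest switched-on genes (left) and the 8 highest switched-off genes (right) in each WT (blue) and S1S2 (red) library, on a log axis where libraries with no count are drawn at 0.02. The grey band marks what 3 counts are worth in the 6 libraries. By the rule that picked these genes, the silent genotype lies in or under the band and the other above it.

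Interferon-stimulated genes were the list with the most calls in a single direction. Type I interferons act through a receptor that activates the transcription factor ISGF3, which binds repeats of the bases GAAA in target promoters and induces sensors of viral RNA, antiviral effectors and chemokines. Of 50 tested list members edgeR called 32 higher and none lower (33 and 0 by DESeq2), with a median log2 fold change of 1.8 (1.73 with the gene silent in WT at its bound) against -0.00317 over all genes, and the summed level of the list was 637 to 688 CPM in WT and 1372 to 1488 CPM in S1S2. At an unadjusted p under 0.05, 45 of 50 were higher and 0 lower. The list and its direction were known from earlier results of these data.

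Antiviral effectors and sensors were among the members that rose. Oas3 was at 0.0615, 0.0661 and 0 CPM in WT and 4.55, 5.29 and 5.83 CPM in S1S2. Rsad2, the antiviral enzyme viperin, which is outside the naming rule as are Ifit1 and Isg15, rose from 3.91, 3.50 and 3.84 to 65.1, 63.4 and 69.0 CPM (4.13, SE 0.059). Ifit1, which binds foreign RNA, rose from 9.41, 11.3 and 10.4 to 84.6, 90.2 and 99.1 CPM, and Isg15, a ubiquitin-like modifier, from 5.69, 5.95 and 6.32 to 28.5, 33.1 and 38.0 CPM. The groups did not overlap in any of these genes. The GTPase gene Iigp1 held 2 counts in WT and 43 in S1S2, a ratio of 28.6 (7.46 to 244). Slfn2 held 0 counts in WT and 9 in S1S2 (at least 1.34-fold higher), and its call was lost when any of 5 of the 6 libraries was left out. Not every member moved: Eif2ak2, an RNA-activated kinase, and Dtx3l, a ubiquitin ligase, both differed by 0.09 and were not called.

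Secreted immune signals moved both ways. Of 25 tested chemokines and cytokines 5 were called higher and 5 lower. Cxcl10, a T cell attractant induced by interferon, rose from 9.84, 10.1 and 8.28 to 133, 129 and 136 CPM (3.82, SE 0.091, adjusted p = 3.25e-17), and Ccl5 rose from 0.984, 1.09 and 1.19 to 13.2, 13.2 and 16.5 CPM. Ccl9 fell from 5.01, 4.99 and 4.80 to 0.138, 0.219 and 0.0941 CPM, and Il1rn, the antagonist of interleukin 1, from 11.9, 10.9 and 11.3 to 0.873, 0.765 and 0.847 CPM. Of 15 genes of MHC class I presentation 3 were called higher and none lower by edgeR and by DESeq2, against 12 higher and 0 lower at an unadjusted p under 0.05. They were Nlrc5, the transactivator of class I genes (2.37), H2-T23 (1.17) and the peptide transporter Tap1 (1.05).

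Promoters of this list were read from RefSeq (GRCm38.p6), as 250 bases before to 50 bases after each start, to show the element that ISGF3 is known to bind. The motif searched on both strands was GAAA, any 2 bases, GAAA. It was held by 282 of 9309 promoters of tested genes (3.03%), by 8.10% of those of genes called higher and by 4.39% of those called lower. Of 35 list members with a promoter in the table, 13 of the 23 called higher (56.5%) and 7 of the 12 not called held it, and outside the list it was held by 5.29% of promoters of genes called higher. The following windows lie upstream of the start, 5′ to 3′ on the strand of the gene, with the motif or its reverse complement, and overlapping copies, in capitals.

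Oas3, chr5:120777710-120777749, minus strand: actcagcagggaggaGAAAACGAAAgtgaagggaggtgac

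Rsad2, chr12:26456548-26456587, minus strand: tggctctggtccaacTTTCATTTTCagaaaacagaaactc

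Oas1a, chr5:120907526-120907554, minus strand: ccttctcggGAAATGGAAACTGAAAatct

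Trim30a, chr7:104465205-104465244, minus strand: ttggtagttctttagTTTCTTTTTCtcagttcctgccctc

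Ifit3, chr19:34583392-34583431, plus strand: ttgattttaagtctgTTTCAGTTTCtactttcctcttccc

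Ifit3b, chr19:34607788-34607827, plus strand: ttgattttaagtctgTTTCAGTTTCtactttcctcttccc

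The windows of Ifit3 and Ifit3b were identical in all 40 bases. A match is a description of the sequence and not a measured binding site, and 10 of the 23 called members had none in the bases searched.

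Genes of the extracellular matrix fell more often than they rose. Among 9 tested small leucine-rich proteoglycans, which bind collagen fibrils, 7 were called lower and none higher by edgeR, 5 lower and none higher by DESeq2 among the same genes (6 calls over the whole list), and 8 lower and 0 higher at an unadjusted p under 0.05, with a median of -1.71. Of 25 collagen chains 8 were called lower and 4 higher, and of 33 matrix glycoproteins 8 lower and 3 higher. Col1a2, a chain of type I collagen, fell from 2384, 2492 and 2311 to 384, 394 and 408 CPM (-2.60, SE 0.040, adjusted p = 7.51e-17). Col3a1, the chain of type III collagen, fell from 1479, 1560 and 1543 to 181, 182 and 207 CPM (-3.01, SE 0.067). Col6a3, a chain of the beaded filament collagen VI, fell from 18.7, 19.1 and 18.5 to 0.368, 0.838 and 0.282 CPM (-5.15, SE 0.39), and its partners Col6a1 and Col6a2, named outside the rule, fell by 1.36 and 1.52. Col1a1, the partner chain of Col1a2, was at 3340, 3894 and 2981 CPM in WT and 2599, 2578 and 2756 CPM in S1S2 (-0.36), short of the fold limit, so the chains of type I collagen were unequally lower. The 4 chains called higher, Col7a1 (1.39), Col18a1 (1.09), Col20a1 (1.33) and Col27a1 (1.22), also named outside the rule, are chains of anchoring fibrils, basement membrane and minor fibrillar or fibril-associated types.

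Among proteins of the matrix and its turnover, members were called in both directions. Omd, encoding osteomodulin, fell from 6.21, 4.83 and 7.96 to 0.368, 0.729 and 0.470 CPM (-3.55, SE 0.31). Postn, encoding periostin, fell from 49.9, 50.05 and 54.8 to 7.26, 8.20 and 6.21 CPM, and Spon2 fell by 2.99. Igfbp7, a secreted binding protein, held 0, 1 and 0 counts in WT and 8, 6 and 2 in S1S2 and was called higher, a call lost without S1S2 replicate 1 or WT replicate 1. Optc and Prelp, both below 1 CPM in all libraries, were called at -2.04 each, and the call was lost without any of 5 single libraries for Optc and any of 4 for Prelp. Lox, the enzyme that crosslinks collagen, was at 815, 786 and 868 CPM in WT and 308, 303 and 306 CPM in S1S2 (-1.43, SE 0.043). Metalloproteinases and their inhibitors were called in both directions, 7 of 41 higher and 6 lower. Mmp10 had no count in WT and 0.460, 0.620 and 0.423 CPM in S1S2, a rise of at least 5.05-fold, and Mmp24 rose by 3.71. Serine protease inhibitors also split, with 5 of 16 higher and 2 lower, which were Serpinf1 and Serpina3g (-3.38). By DESeq2, 4 of these were higher and 1 lower, and Serpina3g was not called.

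Contractile genes were called only lower, 7 of 23 by edgeR and by DESeq2, with a median of -0.44, and at an unadjusted p under 0.05 14 were lower and 2 higher. Acta2, the smooth muscle actin of activated fibroblasts, fell from 273, 279 and 248 to 43.7, 41.7 and 39.1 CPM (-2.68, SE 0.070, adjusted p = 4.95e-16). The myosin light chain Myl9 fell from 34.1, 34.2 and 31.0 to 5.15, 6.12 and 4.18 CPM, and Tagln, an actin-binding protein, from 330, 347 and 276 to 80.1, 80.8 and 74.96 CPM. Lmod1 held 1 count in S1S2 and 48 in WT, a ratio of 36.1 (6.17 to 1450). Of 27 integrins and laminins, which are matrix receptors and basement membrane chains, 6 were called higher and 3 lower, with a median of 0.01, and Itga3 went from 76.9, 81.5 and 65.0 to 225, 228 and 210 CPM. Without WT replicate 1 this list had 5 calls in place of 9, and Itga2 and Itgb6, both under 1 CPM, lost theirs.

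Part of the list of amino acid supply and ATF4 stress response genes fell. ATF4 is the transcription factor through which cells answer a lack of amino acids, with targets in transport and in serine and one-carbon metabolism. Of 26 genes 10 were called lower and none higher by edgeR and by DESeq2, with a median of -0.76, and at an unadjusted p under 0.05 20 were lower and 2 higher. Aldh1l2, a mitochondrial folate enzyme, fell from 358, 303 and 461 to 45.1, 44.3 and 91.5 CPM (-2.64, SE 0.39). Trib3, a pseudokinase induced by ATF4, fell from 120, 99.1 and 149 to 28.8, 28.4 and 65.4 CPM, and Cth, which makes cysteine, from 24.0, 18.9 and 32.7 to 7.17, 6.96 and 9.92 CPM. Phgdh, the first enzyme of serine synthesis and named outside the rule, was at 404, 400 and 427 CPM in WT and 392.1, 390 and 432 CPM in S1S2 and was not called. In Aldh1l2, Trib3 and Cth, WT-3 and S1S2-3 were the highest libraries of their genotypes, and the 2 genotypes did not overlap in the called genes named here.

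Detoxification genes were called in both directions. Gsta4, a glutathione transferase for lipid aldehydes, rose from 11.1, 10.1 and 12.4 to 240, 242 and 234 CPM (4.41, SE 0.087, adjusted p = 2.59e-18). Gsta1 was switched on at 3.68, 2.95 and 3.53 CPM, though 84.7% of its 75-base words are also in other genes, mainly Gm3776. Gstm2 fell from 11.6, 10.8 and 12.96 to 3.68, 3.10 and 3.81 CPM. In all, 2 of 25 Nrf2 target and redox genes were called higher and 4 lower.

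Signalling pathways were called in both directions. Of 36 Wnt pathway genes 6 rose and 6 fell. Wnt ligands, counted by symbol, were called higher in 5 of 10 tested, among them Wnt7a and Wnt4, which went from 0.954, 1.82 and 1.51 to 15.3, 16.1 and 14.6 CPM, while Wnt5a was called lower, and the secreted proteins Dkk3 and Dkk2 (-3.40) fell. In the TGF-beta and BMP pathway 5 of 47 rose and 5 fell. The BMP antagonist Grem1 fell from 110, 112 and 106 to 21.3, 20.3 and 20.4 CPM, while the activin antagonist Fst rose by 2.02. In the Notch pathway the ligand genes diverged: Jag1 fell by 1.54 and Jag2 rose by 1.48, within 2 genes called higher and 3 lower of 20. Fgf10 held 69 counts in WT and 6 in S1S2, a ratio of 8.64 (3.77 to 24.4), and 3 of 32 genes of the FGF and IGF pathway rose and 6 fell. Axon guidance genes, whose products steer growing neurites, had 7 calls higher and 10 lower of 55. Slit2 fell by 2.35 and Slit3 by 4.34 on the log2 scale, whereas Slit1 held 5 counts in WT and 50 in S1S2, a ratio of 13.3 (5.34 to 42.8). Crabp1, which binds retinoic acid, fell from 504, 514 and 477 to 174, 173 and 168 CPM.

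Lists of genes known from other lineages also held calls. Of 21 tested keratins and epithelial junction genes 7 were called higher and 1 lower, with a median of 0.62 (0.41 with genes silent in WT at their bounds), and 66 of the 96 listed stayed within the floor throughout. Krt8 rose from 0.123, 0.0992 and 0.193 to 4.78, 4.12 and 5.13 CPM (5.03, SE 0.21), although 22% of its words are shared, mainly with Krt8-ps. Ocln, a tight junction protein, had no count in WT and 0.598, 0.583 and 0.564 CPM in S1S2. These stand beside the summed epithelial markers given above, of which Krt5 and Cldn3 had no count. Of 17 tested germline genes 6 were called higher and 1 lower, and 108 of the 133 listed had 3 counts or fewer in each library. Besides Tdrd9, Tex15, a meiosis and piRNA pathway gene, had no count in WT and 0.460, 0.765 and 0.799 CPM in S1S2, a rise of at least 6.80-fold, and Rhox5, an X-linked homeobox gene, rose from 0.0308, 0.132 and 0.0967 to 1.56, 1.35 and 1.60 CPM. Neuronal genes were called higher in 5 of 15, Gap43, a growth cone protein, from 9.78, 9.22 and 9.38 to 60.2, 61.9 and 59.4 CPM, and lower in 2. With at least 10 counts required in every library, 2 keratin and junction genes, 1 germline gene and 3 neuronal genes were called. Imprinted genes, 3 of 26 higher and 3 lower, included Cdkn1c, an inhibitor of cyclin-dependent kinases, at 21.9, 20.3 and 20.5 CPM in WT and 49.7, 50.5 and 51.5 CPM in S1S2.

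Transcription factors were called in both directions. Of 92 developmental factors outside the Hox clusters 8 rose and 12 fell, among them Prrx1, a mesenchymal homeobox gene, from 104, 104 and 106 to 17.5, 19.9 and 20.2 CPM (-2.44, SE 0.067). Isl1 and Alx1 were at 0 in S1S2, at least 3.40-fold and at least 2.57-fold lower. Zinc finger genes with Zfp symbols were called in 7.69% of 364, 12 higher and 16 lower, near the share over all genes. At the adjusted p without the fold limit, however, 92 of the 364 were lower and 35 higher, and at an unadjusted p under 0.05 130 were lower and 55 higher, against 26.8% and 27.8% of all tested genes, with a list median of -0.10. Atf7ip, a partner of SETDB1, rose from 108, 114 and 105 to 224, 224 and 222 CPM, a log2 fold change of 1.03 that lies at the fold limit and falls to 0.999 without WT replicate 3. Its relative Atf7ip2 was switched on, with 5 counts in WT and 81 in S1S2. These were the only calls among 38 heterochromatin partners, with either tool. At the adjusted p without the fold limit, however, 12 of the 38 were lower and 6 higher. At an unadjusted p under 0.05, 18 were lower and 8 higher, with a list median of -0.10. Of 26 p53 targets 3 were called higher and none lower by edgeR and, among the genes edgeR tested, by DESeq2 (4 calls by DESeq2 over the whole list, 5 by edgeR without WT replicate 3, and 18 higher and 4 lower at an unadjusted p under 0.05), and Perp, a p53-induced membrane protein, rose from 0.0615, 0.132 and 0 to 2.67, 1.57 and 1.98 CPM.

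Housekeeping, proliferation and Hox gene lists held no call. The lists were not matched for level, and of all tested genes at 10 to 100 CPM 3.78% and over 100 CPM 2.09% were called. None of 80 ribosomal protein genes, 87 respiratory chain genes, 58 clustered histone genes, 31 DNA replication genes, 29 Hox genes, 25 mitosis genes and 24 cholesterol synthesis genes was called by edgeR or by DESeq2, with list medians between -0.25 and 0.09. The histone list had 1 call without S1S2 replicate 2 and the Hox list 1 without WT replicate 2. At an unadjusted p under 0.05, 85 of these 334 genes were higher and 81 lower, against 27.8% and 26.8% of all tested genes. Higher and lower genes numbered 25 and 7 for ribosomal proteins, 20 and 8 for histones, 11 and 7 for mitosis, 8 and 11 for DNA replication, 16 and 22 for the respiratory chain, 2 and 8 for Hox genes and 3 and 18 for cholesterol synthesis. Polycomb genes had 1 call in 30, Cbx7, from 0.615, 0.496 and 0.226 to 3.13, 2.59 and 2.68 CPM. Of 75 ion channels 7 were called higher and 10 lower, and of 205 solute carriers 11 higher and 15 lower. P2rx7, a channel opened by ATP, rose from 0.461, 0.661 and 0.354 to 6.11, 6.92 and 7.43 CPM, and the glutamate transporter Slc1a2 fell from 0.554, 0.926 and 1.16 to 0, 0.0365 and 0 CPM.

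**Figure D3:**
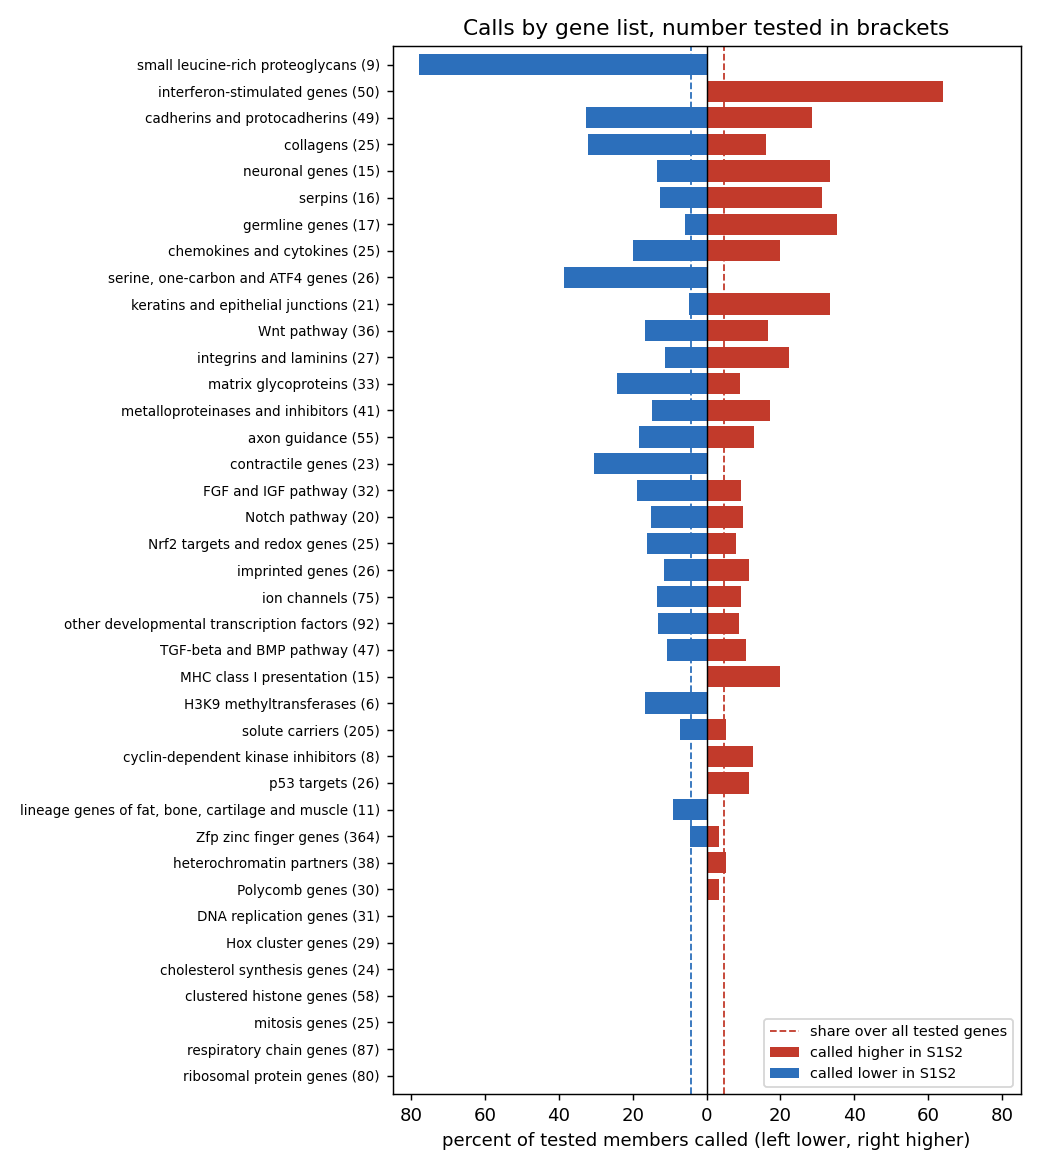
Percent of the tested members of each gene list called lower (blue, to the left) or higher (red, to the right) in S1S2, with the number tested in brackets and dashed lines at the 4.34% and 4.66% of all tested genes. Interferon-stimulated genes extend only to the right, small leucine-rich proteoglycans, ATF4 and contractile genes only to the left, and 7 lists have no bar.

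Families taken from gene symbols alone, with at least 10 tested members, gave a view that no chosen list enters. The highest shares were 60.0% of 10 Wnt genes, 54.5% of 11 Mmp genes, 5 of 10 Cdh genes, 46.2% of 26 Col genes and 42.9% of 14 Tspan genes. Trim genes, of which several restrict viruses, were called in 20.9% of 43, 8 higher and 1 lower. Dusp genes, phosphatases that act on MAP kinases, had 6 calls in 20, 5 higher and 1 lower. The number of genes behind each share is small.

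Cadherins and protocadherins held both directions in 1 chromosomal cluster. Protocadherins are neural adhesion molecules whose clustered genes on chromosome 18 are each read from a promoter of their own, in arrays named alpha, beta and gamma. Of 49 tested cadherins and protocadherins 14 were called higher and 16 lower. The longest run of consecutive tested genes called in the same direction was 9 genes of the beta array at chr18:37320381-37524479, all lower, with log2 fold changes between -5.52 and -3.04. Pcdhb16 was at 3.60, 3.31 and 5.41 CPM in WT and 0.0460, 0.0729 and 0.141 CPM in S1S2, and Pcdhb22, at the far end of the run, fell from 9.81, 9.69 and 10.5 to 1.47, 1.02 and 1.18 CPM. Of the 9 genes 4 were switched off. Further along, runs of gamma genes were called higher, 4 genes from Pcdhgb2 to Pcdhga7 by 1.12 to 3.08 and 3 genes from Pcdhga8 to Pcdhga9 by 1.32 to 1.61. Gamma genes share 32.9% to 49.6% of their 75-base words with other genes of the array, so that which gamma gene rose is uncertain. Outside the cluster, Pcdh10 was at 0 in WT and 1.75, 2.33 and 2.54 CPM in S1S2, a rise of at least 22.2-fold.

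Altogether 38 runs of 3 or more genes, 19 higher and 19 lower, held 145 genes, 10.4% of those called. The second run by length was 7 entries at chr5:47983138-48307733, lower by 1.96 to 2.89, but these are Slit2, a guidance cue, and 6 transcripts inside it on the same strand, Mir218-1 among them, so they need not be separate genes in these counts. Slit2 itself was at 484, 492 and 514 CPM in WT and 96.3, 92.0 and 104 CPM in S1S2. The Oas genes, sensors that make a second messenger on binding foreign RNA, formed a run of 6 at chr5:120730333-120907521, higher by 1.26 to 6.79. Oas1b, a member of this run, is annotated as a polymorphic pseudogene. Within it Oas1c differed least, from 0.892, 1.06 and 0.838 to 2.30, 2.40 and 1.93 CPM, and Oas1a and Oas1g share 47.6% and 36.9% of their words. Oas2, in that run, was at 0.0615, 0.0661 and 0.0967 CPM in WT, 1.29, 1.24 and 1.55 CPM in S1S2 and 14.0 CPM on average in G9Gl. An Ifit run of 5 genes on chromosome 19 was higher by 1.54 to 3.79, with Ifit3 and Ifit3b sharing 41.1% and 35.7%.

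A run of zinc finger genes on chromosome 4 rose from almost no RNA in WT. At chr4:147230284-147585198 lie Gm13147, Zfp988, Zfp978, Zfp982 and Zfp985, all called higher. Zfp978, Zfp982 and Zfp985 had no count in any WT library, and Zfp982 reached 0.965, 1.42 and 1.46 CPM in S1S2, a rise of at least 12.9-fold. Rex2, in the same region, had no count in WT and 0.552, 0.437 and 0.470 CPM in S1S2, and Zfp981, at chr4:146502027-146539395, rose from 0.154, 0.364 and 0.354 to 12.9, 14.0 and 13.1 CPM. Of the words of Zfp978 66.4% occur in other genes, mainly Zfp600, and of those of Rex2 82.4%, so which members rose is uncertain. A further 6 higher genes, Gm3696, Gm3468, Gm3636 and Gm3005 among them, are spread over 3890 kb near the start of chromosome 14 and share 58.3% to 96.1% of their words with many copies, with Gm3468 from 1.54, 1.98 and 1.35 to 12.2, 11.3 and 9.64 CPM.

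Shorter runs joined related and unrelated neighbours. H19, an imprinted noncoding RNA, fell from 18.7, 20.5 and 16.8 to 0.506, 0.583 and 0.564 CPM (-5.06, SE 0.095, adjusted p = 8.43e-14), and its neighbour Igf2, the fetal growth factor, from 30.9, 34.6 and 33.6 to 7.26, 7.03 and 8.94 CPM, in a run of 4 on chromosome 7 with Igf2os and Tspan32. Igf2 shares 60.3% of its words with the overlapping Gm49394. The proteoglycan genes Optc, Prelp and Fmod formed a lower run on chromosome 1, and Gstm2, Gstm1 and Gstm4 a lower run on chromosome 3. The run on chromosome 1 rests on Optc and Prelp, whose calls were lost with DESeq2 and without several single libraries. The carboxylesterases Ces2e, Ces2f and Ces2g were higher by 4.18 to 4.35, and Mapk10, 5430427N15Rik and Ptpn13 by 3.04 to 4.40.

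**Figure D4:**
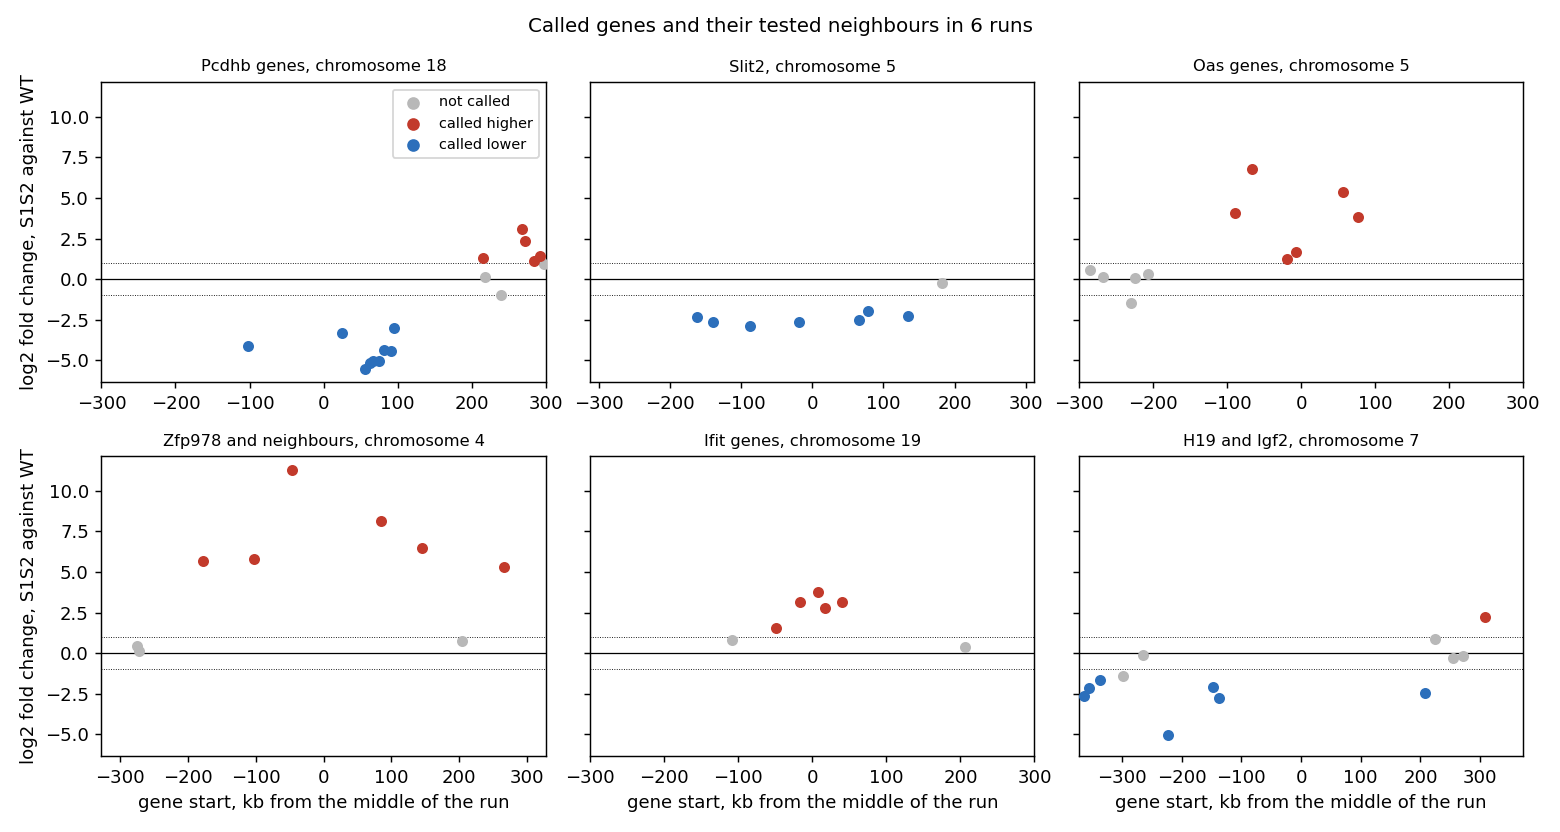
Log2 fold change of S1S2 against WT for called genes (red higher, blue lower) and other tested genes (grey) in 6 runs, by the distance of each gene's start from the middle of the run in kb; dotted lines mark a fold of 2. The Pcdhb genes lie between -5.52 and -3.04 with higher gamma genes to their right, and the Oas, Ifit and Zfp978 runs lie above the upper dotted line.

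Calls were spread over all chromosomes, but chromosome 19 stood apart in its median. On chromosome 19 82.8% of 487 tested genes had a log2 fold change above 0, the median was 0.34 (0.30 for genes over 10 CPM), and 41 genes were called higher and 10 lower. Its share of all counts was 4.08% to 4.11% in the WT libraries and 5.29% to 5.30% in the S1S2 libraries. The median was positive in each of 7 windows of 10 Mb, from 0.20 to 0.56, and so did not come from a single locus. Medians of the other chromosomes ran from -0.15 (chromosome 10) to 0.15 (chromosome 8). The number of copies of a chromosome in the S1S2 clone was not tested. With each chromosome's median removed before the fold limit, 1383 genes were called, 94.4% of the original calls among them. By distance from the centromeric end the share called ran from 8.33% to 9.23% over 5 classes. Within 10 Mb of that end 5.88% were called higher and 3.17% lower, and within 10 Mb of the opposite end 5.87% and 4.3%.

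Gene type and span went with the share called, but these shares were not separated by expression level. Of genes under 1 CPM 17.6% were called and of those over 100 CPM 2.09%. Of 12373 protein-coding genes 9.54% were called, of 342 long intergenic noncoding RNAs 14.0%, and of 640 processed pseudogenes 2.03%. Genes spanning over 100 kb were called in 15.1% and those under 10 kb in 7.33%, with nearly equal parts higher and lower in the long class (7.85% and 7.25%).

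Promoters with few CpG dinucleotides belonged to called genes more often, in both directions. In mammals most broadly expressed genes start in CpG islands, and promoters poor in CpG often belong to tissue-specific genes. The CpG ratio, observed over the number from base composition in the 300 bases around the start, had a median of 0.559 for genes called higher, 0.564 for genes called lower and 0.795 for genes not called. Of 589 genes with a ratio under 0.25, 26.8% were called, and of 5136 with a ratio over 0.75, 4.67%. The difference held among genes at 10 to 100 CPM, with 16.1% of 143 against 2.07% of 2950, and at 1 to 10 CPM, with 38.2% of 173 against 14.7% of 700. Among genes over 100 CPM it was 13.3% of 30 against 0.744% of 1209, and among genes under 1 CPM 26.7% against 24.2%. The letters TATAAA were in 6.71% of all promoters, 46 of the 420 of genes called higher and 42 of the 387 of genes called lower.

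**Figure D5:**
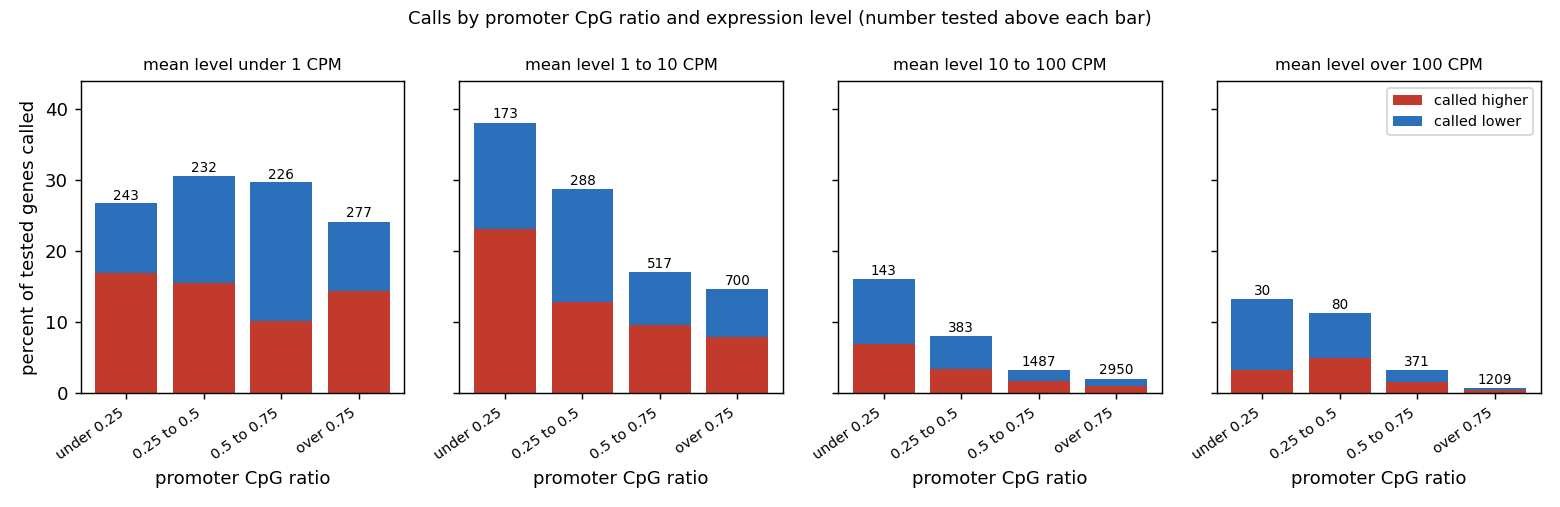
Percent of tested genes called higher (red) and lower (blue, stacked) by promoter CpG ratio, in 4 classes of mean CPM over WT and S1S2, with the number of genes above each bar. The bars fall from left to right in the 3 classes above 1 CPM and not in the class under 1 CPM.

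The 250 bases before the start are shown for 2 collagen genes that fell, for a switched-on gene and, as a gene not called, for Ehmt2, with every CG in capitals. Col3a1 has no CG here and Col6a3 has 3, while Adam22 has 17 and Ehmt2 has 18. Tdrd9, also switched on and not printed, has 8 with a ratio of 0.43, and the medians of genes called higher and lower were close to each other, as given above.

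Col3a1, chr1:45311288-45311537, plus strand: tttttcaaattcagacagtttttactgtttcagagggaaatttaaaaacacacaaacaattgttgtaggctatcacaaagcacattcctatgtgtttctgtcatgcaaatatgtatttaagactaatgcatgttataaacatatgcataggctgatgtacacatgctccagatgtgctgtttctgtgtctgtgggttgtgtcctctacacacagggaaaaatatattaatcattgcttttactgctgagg

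Col6a3, chr1:90843972-90844221, minus strand: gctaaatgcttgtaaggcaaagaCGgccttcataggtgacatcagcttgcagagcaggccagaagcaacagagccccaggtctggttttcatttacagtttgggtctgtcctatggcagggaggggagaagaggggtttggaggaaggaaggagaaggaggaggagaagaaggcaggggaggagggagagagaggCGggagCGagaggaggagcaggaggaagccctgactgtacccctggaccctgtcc

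Adam22, chr5:8368161-8368410, minus strand: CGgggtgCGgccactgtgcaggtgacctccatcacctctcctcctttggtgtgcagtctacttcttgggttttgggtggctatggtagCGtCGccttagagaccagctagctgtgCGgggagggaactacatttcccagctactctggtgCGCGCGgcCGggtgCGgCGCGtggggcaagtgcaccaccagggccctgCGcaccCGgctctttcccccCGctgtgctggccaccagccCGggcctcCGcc

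Ehmt2, chr17:34898224-34898473, plus strand: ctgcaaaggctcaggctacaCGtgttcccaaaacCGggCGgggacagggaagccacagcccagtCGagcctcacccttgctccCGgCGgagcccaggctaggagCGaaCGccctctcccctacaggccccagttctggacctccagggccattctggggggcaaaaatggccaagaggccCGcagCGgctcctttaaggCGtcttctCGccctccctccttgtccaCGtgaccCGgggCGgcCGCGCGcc

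The ratio over the 300 bases was 0 for Col3a1, 0.139 for Col6a3, 0.576 for Adam22 and 0.759 for Ehmt2.

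Several of these genes were compared directly between the mutants. Between G9Gl and S1S2, 13.1% of tested genes were called. Of the 31 switched-on genes 30 and of the 18 switched-off genes 17 were among them, and this count rests on S1S2 values that the choice of these genes already used. Resf1 was at 254 CPM on average in G9Gl, against 241 CPM in WT and 988 CPM in S1S2 (G9Gl against S1S2 -1.96, adjusted p = 1.65e-15). Col1a2 was at 2030 CPM in G9Gl, and Crmp1, switched off in S1S2, at 61.0 CPM in G9Gl.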

How the data were processed

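Per the study's methods, stranded total RNA libraries were read as 75 bp pairs, and the authors used cutadapt for trimming and STAR 2.5.2b, set as TEtranscripts advises, for alignment to GRCm38, and counted genes and repeats with TEtranscripts, a tool made to handle reads that map to several places. The deposited values are raw counts per Ensembl gene, with no normalization. The annotation release, the counting mode and the use of strand in counting are not given in the sources used here, so overlapping, antisense and near-identical genes are uncertain. Of 47937 genes 47310 matched GENCODE M21, which gave symbols and positions, and 21449 had no count in any library. There were 0 sample columns that could not be mapped to a label.

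All 9 libraries were fitted with edgeR 4.0.16 in R 4.3.3 (filterByExpr, TMM factors, glmQLFit and glmQLFTest), which tested 15540 genes. The shared coefficient of biological variation was 5.36%. SE come from replicate log2 CPM with a prior count of 2. DESeq2 1.42.0 was an alternative. Counts were simulated for S1S2 against WT over 14915 genes, with 50 genes at each fold. Of genes changed 1.5-fold 2% were called, of those changed 2-fold 64%, and of those changed 4-fold or 8-fold 100%, with 0 false calls. The changed genes were drawn from genes with expected counts above the floor, and every gene was given the shared variation. These shares therefore do not carry over to genes near the floor or with a wider spread. Near-identical copies were described by the share of a gene's 75-base words that occur in transcripts of other genes. Promoters came from RefSeq (GRCm38.p6), which matched 9309 tested genes.

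The gene lists, the comparison and the naming rule were chosen with earlier results of these data known. Named genes are the 6 H3K9 methyltransferases, the 10 largest rises and falls with a mean normalized count over 100 and no overlap, the 5 largest rises and falls in CPM, up to 4 called genes per list, the 8 highest genes switched on or off, and the members of the 5 longest runs. Same-numbered WT and S1S2 libraries deviated together with correlations of 0.0145, 0.0179 and 0.104, so the numbers were not taken to pair the cultures.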

Additional observations from a re-analysis of the deposited data

Results flagged for a closer look

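In 2 of the genes with the largest changes, S1S2 and G9Gl cells were called in opposite directions from WT, each by 2-fold or more, and the direct comparison of the mutants was called by edgeR. Zfp981, a zinc finger gene of the chromosome 4 cluster, was at 0.291 CPM on average in WT, 13.3 CPM in S1S2 and 0 CPM in G9Gl. The fitted log2 difference of G9Gl from S1S2 was -11.54 (adjusted p = 1.03e-12), a value that depends on the prior count, and S1S2 was at least 124-fold higher than G9Gl. Coro2a was at 0.499 CPM in WT, 21.2 CPM in S1S2 and 0.116 CPM in G9Gl, with a log2 difference of -7.47 (adjusted p = 1.26e-15) between G9Gl and S1S2. Against WT, the changes of Coro2a were 5.39 in S1S2 and -2.08 in G9Gl, and the WT libraries are shared by both values. Below the fold limit in G9Gl, but with an adjusted p under 0.01 there, 6 others of these genes also differed from WT in opposite directions. Dkk3, Slc7a11, Col6a3 and Serpinf1, lower in S1S2, were higher in G9Gl by 0.84, 0.81, 0.70 and 0.34 on the log2 scale. Trim24 and Ptpn13, higher in S1S2, differed by -0.30 and -0.24 in G9Gl. Named genes outside the set examined were also called in opposite directions. Among them were Crmp1 (-5.60 in S1S2 and 4.74 in G9Gl), Il1rn (-3.78 and 3.22) and Acta2 (-2.68 and 1.96). Higher in S1S2 and lower in G9Gl were Wnt4 (3.43 and -3.58) and Gsta4 (4.41 and -1.45).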

How the results depend on the processing

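The 1398 calls (724 higher, 674 lower) numbered 1395 with DESeq2, and 93.2% were shared in direction. They moved by over 1.5 times under 3 settings. With at least 10 counts in every library there were 799 (414 higher, 385 lower), since genes absent from a genotype are then not tested. With glmTreat against a fold of 2 there were 735 (391 and 344), and at an adjusted p of 0.05 with no fold limit 7599 (3925 and 3674). Leaving out each library in turn gave 1296 to 1426 calls, 698 to 752 higher and 598 to 674 lower, 31 to 36 genes switched on, 19 to 24 switched off and 123 to 153 genes in runs. With the replicate block there were 1383 calls (721 higher, 662 lower), 31 genes on, 18 off and 145 in runs, and of the named genes only Optc lost its call. The switched-on and switched-off genes numbered 74 and 56 with a floor of 10 counts, 55 and 44 at 0.5 CPM, and 6 and 2 at 5 CPM in the expressing genotype. Runs of 2 or more held 395 genes, against 145 in runs of 3 or more. Of 158 named genes under 17 alternatives, 2495 values kept their side of the threshold, 78 fell short of it, 4 passed it and 0 reversed. Without single libraries, 15 named genes lost their call: Optc and Slfn2 without any of 5, Itga2 and Prelp 4, Btg2, Cebpa, Igfbp3 and Map2 3, Igfbp7 and Itgb6 2, and Atf7ip, Krt16, Mir218-1, Nrarp and Tap1 1. With DESeq2, Optc, Prelp, Serpina3g, Itga2, Igfbp3 and Cebpa were not called. The cause was not tested. Of 39 gene lists, counts moved by over 1.5 times in 78 of the values, 35 of them at an adjusted p of 0.05 with no fold limit, 18 with glmTreat and 14 with the count minimum, which left calls in 20 interferon-stimulated genes of 32, 15 cadherins and protocadherins of 30, 9 axon guidance genes of 17, 8 metalloproteinases and inhibitors of 13, 16 Zfp genes of 28, 16 solute carriers of 26, 5 integrins and laminins of 9, 3 proteoglycans of 7, 3 neuronal genes of 7, 2 keratin and junction genes of 8, 1 germline gene of 7, 1 heterochromatin partner of 2 and none of the single calls among Polycomb and lineage genes. Depth limits the values of genes near 3 counts, whose presence in a genotype was not detectable below 0.0923 to 0.141 CPM.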
